A study of Mus musculus with 8 samples.

Results

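The regions described here lie at 9 genes that mark blood lineages other than dendritic cells: Cd3e, Gata3 and Tcf7 of T cells, Pax5 and Ebf1 of B cells, Ncr1 and Prf1 of natural killer (NK) and cytotoxic cells, and Gata2 and Epb42 of blood progenitors and red cells. The cells were conventional type 1 dendritic cells (cDC1) of mouse spleen, the dendritic cells that cross-present antigen, isolated by sorting. Their chromatin was assayed by ATAC-seq, a method that reads where a transposase can cut DNA. A region was taken when it overlapped a gene span or lay within 25 kb of it on the mouse build GRCm38, which gave 37 of the 59906 regions in the count table. Of these, 27 were nearer to the member gene than to any other protein-coding gene (19 inside the gene span and 8 outside it) and are called its own regions. The other 10 were nearest to a neighbouring gene. The OPA1KO group held 4 libraries from CD11c-Cre; OPA1 flox mice, in which Cre recombinase acts in CD11c-expressing cells on the gene for OPA1, a GTPase that fuses inner mitochondrial membranes. The WT group held 4 libraries from WT mice, and the labels say neither whether these carried Cre nor give age, sex or strain, nor whether a library came from 1 animal or from pooled animals. The p-values therefore rest on library-to-library spread alone, part of which may be technical.

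These genes work as lineage controls because their products build cells that a cDC1 sort should leave out. CD3 epsilon is a chain of the T cell receptor complex, TCF-1 (from Tcf7) and GATA3 are transcription factors of T cell development, and PAX5 and EBF1 are the factors that fix B cell identity. NKp46 (from Ncr1) is an activating receptor of NK cells, perforin (from Prf1) forms the pores through which cytotoxic cells kill, GATA2 maintains blood stem and progenitor cells and mast cells, and protein 4.2 (from Epb42) ties the red cell skeleton to its membrane. Open chromatin at such a gene in bulk counts can come from a few cells with a fully open locus or from weak openness in many cells, and the counts cannot tell these apart.

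The annotated starts of the members differed in CpG dinucleotides, and so did the openness of regions within 1 kb of them. The Gata3 region lay outside the stretch printed below. The following RefSeq sequences (GRCm38.p6, from 250 bases before to 50 after the listed start, 5′ to 3′) are those of the strongest start (Gata3), the start at which the groups did not overlap (Tcf7), the 2 weakest starts with a region (Prf1 and Epb42) and a start without any region (Ncr1), with each CG in capitals.
Gata3, minus strand, chr2:9878551-9878850: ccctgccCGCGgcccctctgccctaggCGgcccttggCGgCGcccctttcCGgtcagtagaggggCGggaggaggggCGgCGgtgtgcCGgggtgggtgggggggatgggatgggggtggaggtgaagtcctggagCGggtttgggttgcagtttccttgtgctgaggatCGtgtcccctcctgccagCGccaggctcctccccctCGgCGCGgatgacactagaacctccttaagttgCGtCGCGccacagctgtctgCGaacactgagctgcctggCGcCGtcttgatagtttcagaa
Tcf7, minus strand, chr11:52282965-52283264: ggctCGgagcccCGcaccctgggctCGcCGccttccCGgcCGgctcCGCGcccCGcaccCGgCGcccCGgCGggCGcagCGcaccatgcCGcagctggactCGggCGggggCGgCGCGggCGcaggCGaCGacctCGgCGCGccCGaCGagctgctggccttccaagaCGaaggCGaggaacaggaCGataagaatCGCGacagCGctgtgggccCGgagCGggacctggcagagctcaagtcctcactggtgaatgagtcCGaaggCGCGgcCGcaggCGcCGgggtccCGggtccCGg
Prf1, plus strand, chr10:61297586-61297885: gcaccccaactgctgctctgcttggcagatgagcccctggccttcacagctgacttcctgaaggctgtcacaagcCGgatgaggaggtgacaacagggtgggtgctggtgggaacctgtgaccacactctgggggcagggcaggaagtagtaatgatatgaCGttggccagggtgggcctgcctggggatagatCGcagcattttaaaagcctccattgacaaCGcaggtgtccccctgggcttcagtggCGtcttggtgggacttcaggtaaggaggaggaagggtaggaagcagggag
Epb42, minus strand, chr2:121036828-121037127: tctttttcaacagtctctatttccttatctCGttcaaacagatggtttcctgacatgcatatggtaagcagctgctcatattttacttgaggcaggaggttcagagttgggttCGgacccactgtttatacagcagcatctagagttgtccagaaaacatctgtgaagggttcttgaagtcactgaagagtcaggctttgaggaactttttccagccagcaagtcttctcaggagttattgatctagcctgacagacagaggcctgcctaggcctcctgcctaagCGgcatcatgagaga
Ncr1, plus strand, chr7:4337465-4337764: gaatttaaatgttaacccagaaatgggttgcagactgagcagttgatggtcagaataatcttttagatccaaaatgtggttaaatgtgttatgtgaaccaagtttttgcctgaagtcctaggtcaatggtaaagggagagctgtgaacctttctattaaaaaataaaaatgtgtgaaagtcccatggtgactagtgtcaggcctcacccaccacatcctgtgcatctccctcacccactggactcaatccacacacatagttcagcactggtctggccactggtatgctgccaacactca

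The Tcf7 stretch held 45 CG and the Gata3 stretch 22, against 5 for Prf1, 3 for Epb42 and 0 for Ncr1. Relative to what their C and G content would give, the ratio of CG was 1.03 for Tcf7, 0.658 for Gata3, 0.203 for Prf1, 0.189 for Epb42 and 0 for Ncr1. Over all 21262 listed starts of protein-coding genes, a region lay within 1 kb of 18.3% of starts with a ratio under 0.4, of 55.2% of those from 0.4 to 0.6 and of 85.1% of those over 0.6. CpG content did not order the members in the same way. Pax5 (ratio 0.882) and the outer start of Gata2 (0.900) had no region within 1 kb, while the CpG-poor starts of Prf1 and Epb42 had one. In all, 6 of the 9 genes had a region within 1 kb of a start, at a median of 5.14 CPM (read counts scaled to library size, with TMM factors), against 36.8 CPM over all listed starts with a region.

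Openness at the lineage controls was low, and its summed level differed at most 1.201-fold between any pair of the 8 libraries. That sum leans on Gata3 and Ebf1, at 40.8 and 39.9 CPM. Cd3e, Prf1 and Epb42, at 8.58, 3.30 and 2.45 CPM, add little to it and differed 2.84-fold, 5.17-fold and 6.74-fold between libraries. The median own region was at 4.29 CPM, against 6.66 CPM over all 59906 regions and 6.03 CPM over 133 own regions of 20 cDC1 marker genes. Of the 27 own regions, 5 lay above the median of all regions (18.5%), as did 64 of the 133 cDC1 regions (48.1%), and 1 lay above the upper quartile of all regions (15.7 CPM), at Gata3. Within single libraries, 15 own regions were below the library's median region in all 8 libraries, 2 were above it in all 8, and 10 lay on both sides. The 10 neighbouring regions were more open, with a median of 9.13 CPM and 4 above the upper quartile.

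**Figure D1:**
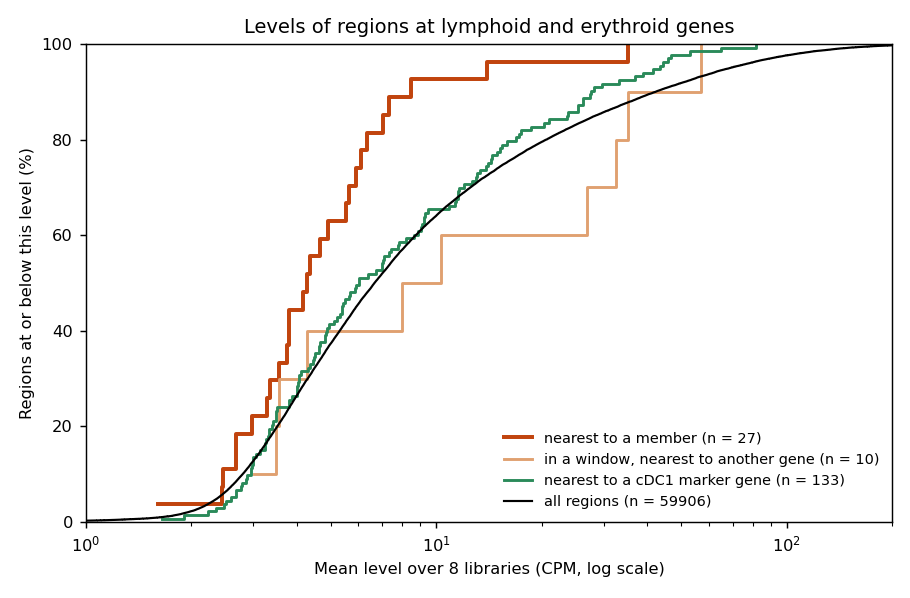
Share of regions at or below a given mean level over the 8 libraries (CPM, log scale) for the own regions of the members, the neighbouring regions in their windows, the own regions of cDC1 marker genes and all regions. The members' curve rises first, with a median of 4.29 CPM against 6.66 CPM for all regions.

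Per length, the own regions as a whole held 20.4, 20.3, 20.02 and 21.0 CPM per kb in OPA1KO replicates 1 to 4, and 21.2, 17.6, 20.1 and 20.9 CPM per kb in WT replicates 1 to 4. WT replicate 2 was the lowest library and the others lay within a narrow band. The groups overlapped with or without it. WT replicate 2 also had the lowest TMM factor (0.947) and the highest level over all regions together (45.8 CPM per kb). The cDC1 regions held 30.6 to 33.2 CPM per kb in OPA1KO libraries and 31.02 to 32.2 CPM per kb in WT libraries. In every library they were above the lineage controls but below all regions together. Those held 42.2 to 44.1 CPM per kb in OPA1KO libraries and 42.4 to 45.8 CPM per kb in WT libraries. The median region was at 15.7 CPM per kb for own regions, 19.9 for cDC1 regions and 19.9 for all regions. Summed over the 27 own regions, the level was 162 ± 3.13 CPM in OPA1KO libraries and 159 ± 12.9 CPM in WT libraries (SD, n = 4 each). The share of all counts in these regions was 0.0156% to 0.0172%, apart from WT replicate 2 at 0.0132%.

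Among the members, Gata3 stood apart with 54.1 ± 6.20 CPM per kb of own region (SD over 8 libraries). Pax5 followed with 20.8 ± 2.50, then Gata2 with 18.3 ± 3.23, Cd3e with 17.4 ± 4.88, Tcf7 with 16.1 ± 1.49, Ebf1 with 15.3 ± 1.86, Prf1 with 13.6 ± 6.29 and Epb42 with 8.03 ± 6.11 CPM per kb. From Pax5 to Epb42, each neighbour in this order differed from the next by less than the larger of their SDs. Ncr1 had no region in its window, own or neighbouring, so no level is given for it. Of 21883 protein-coding genes, 15326 (70.04%) had an own region. Among those, the summed own level of the members lay between the 1.42nd percentile (Epb42) and the 46.6th (Gata3), all below the median gene.

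**Figure D2:**
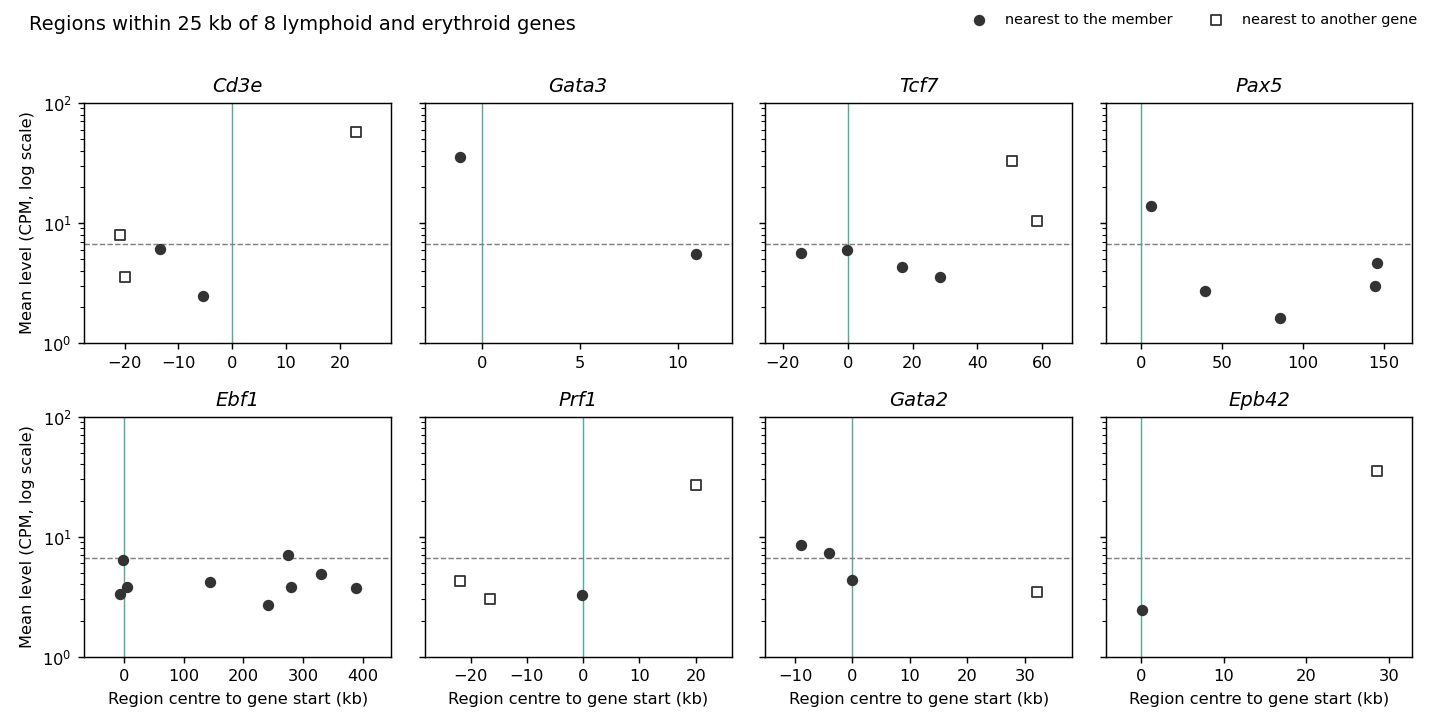
Mean level of each region (CPM over 8 libraries, log scale) against the distance of its centre from the nearest listed start of the member (kb, positive into the gene and beyond), for the 8 members with a region. Filled circles are own regions, open squares regions nearest to another gene, the green line marks the start and the dashed line the median of all regions (6.66 CPM). Most own regions lie below the dashed line, and Gata3 and Pax5 each have 1 clearly above it.

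The comparison of OPA1KO with WT asked whether these loci differed with the loss of OPA1. None of the 37 window regions passed the test (edgeR quasi-likelihood, adjusted p under 0.05 over all tested regions), where 12 of 59247 tested regions did (0.0203%). All 37 passed the filter on low counts. The smallest adjusted p was 0.523. At an unadjusted p under 0.05 there were 3 of 37 regions, against 6.38% of all tested regions. Of these, 2 were higher in OPA1KO, against 2.92% of all regions, and 1 was lower, against 3.46%. The groups did not overlap at 2 of the 37, against 3.96% of all regions, and both were higher in OPA1KO, against 1.84%. Log2 fold changes were positive at 23 of 37 regions, with a median of 0.04, against 49.3% positive and a median of −0.004 over all tested regions. DESeq2 and limma-voom also called 0 of the 37.

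**Figure D3:**
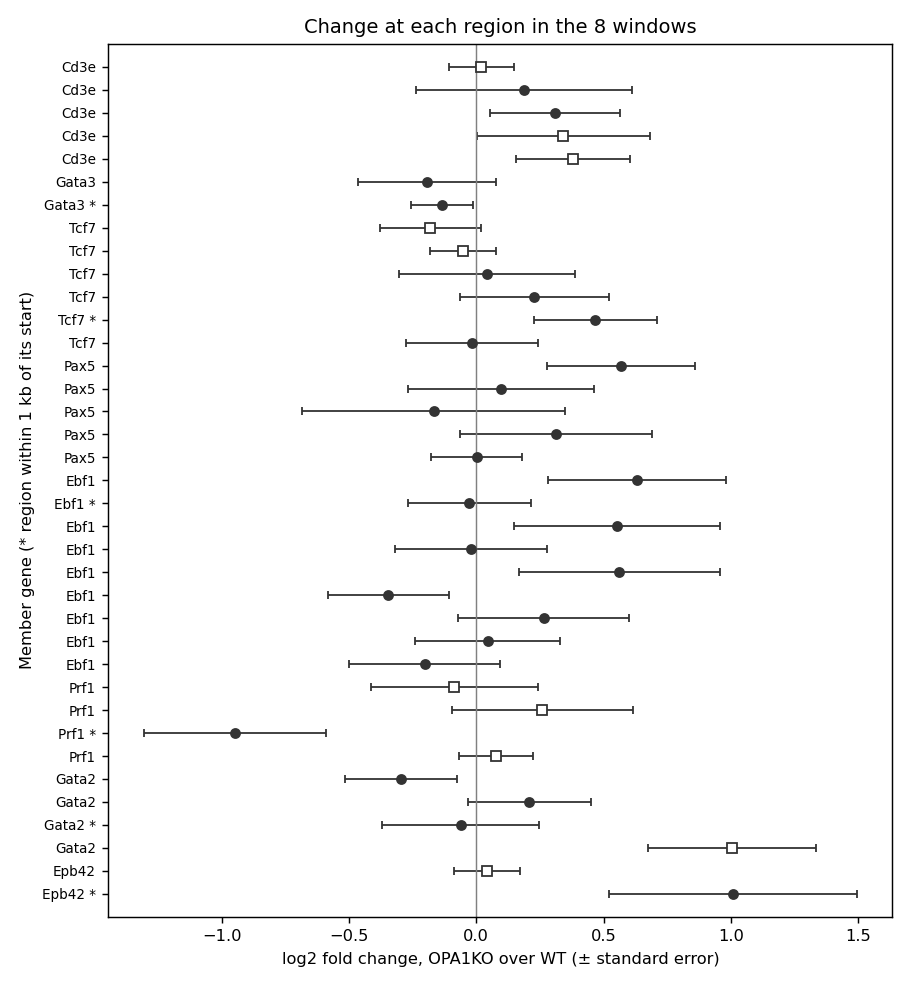
Log2 fold change of OPA1KO over WT (± standard error from the edgeR fit, n = 4 libraries each) at each of the 37 regions, grouped by member, with filled circles for own regions, open squares for regions nearest to another gene and asterisks for regions within 1 kb of a start. The Prf1 start lies lowest at −0.95, and the Epb42 start and the outlying Gata2 window region lie highest at 1.01 and 1.00; none passed the test.

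At the T cell genes, Cd3e (chromosome 9, 44998735 to 45009663) had no region within 5 kb of its start and none inside the gene. Its own regions lay upstream, at 45014968 to 45015179 and 45022860 to 45023141, 5.36 kb and 13.25 kb from the start. The farther one was at 7.82, 5.62, 7.78 and 5.90 CPM in OPA1KO replicates 1 to 4, and at 5.63, 5.30, 3.38 and 7.53 CPM in WT replicates 1 to 4. The groups overlapped, with WT replicate 3 lowest (log2 fold change 0.31 ± 0.26, edgeR adjusted p = 0.891). A region at 45030359 to 45030728, nearest to the adhesion gene Mpzl2 and the one with the smallest p in this window, was at 10.95, 7.07, 7.78 and 10.2 CPM in OPA1KO replicates 1 to 4, and at 6.54, 5.92, 8.23 and 7.17 CPM in WT replicates 1 to 4 (0.38 ± 0.22, edgeR adjusted p = 0.826). The strongest region of all 9 windows was also here, inside Cd3d, the neighbouring gene for CD3 delta. At 44986368 to 44986884 it was at 57.1 ± 11.3 CPM in OPA1KO and 56.4 ± 7.79 CPM in WT libraries, the 93.2nd percentile of all regions (0.02 ± 0.13, edgeR adjusted p = 0.993). Cd3g, which encodes CD3 gamma, had no own region.

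Gata3 (chromosome 2, 9857078 to 9887953) had 2 own regions, and the one 0.88 kb upstream of the printed start was the most open own region of any member. This region, at 9879484 to 9879915 and inside the longest Gata3 model, was at 29.7, 30.5, 35.9 and 38.0 CPM in OPA1KO replicates 1 to 4, and at 37.1, 33.7, 40.1 and 36.8 CPM in WT replicates 1 to 4. It ranked between the 85.9th and 89.7th percentile in every library, with overlapping groups (log2 fold change −0.13 ± 0.12, edgeR adjusted p = 0.906). The other Gata3 region, inside the gene at 9867506 to 9867828, was at 5.16 ± 1.02 CPM in OPA1KO and 5.92 ± 1.93 CPM in WT libraries. No region lay between the gene and 25 kb on either side.

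Tcf7 (chromosome 11, 52246527 to 52283383) had 4 own regions between 3.57 and 5.91 CPM. The one over the 5′ end of its model, at 52283179 to 52283556, overlapped the upstream part of the CpG-rich stretch printed above and was at 6.54, 7.79, 6.57 and 6.56 CPM in OPA1KO replicates 1 to 4. In WT replicates 1 to 4 it was at 4.71, 4.36, 4.85 and 5.92 CPM. Each OPA1KO library was above each WT library at this region, but the difference did not pass the test over all regions (log2 fold change 0.47 ± 0.24, edgeR adjusted p = 0.801). The other 3 own regions overlapped between the groups, with log2 fold changes from −0.02 to 0.23. The region inside Skp1, the neighbouring gene for a ubiquitin ligase subunit, was at 31.9 ± 3.56 CPM in OPA1KO and 33.2 ± 4.31 CPM in WT libraries.

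At the B cell genes, Pax5 (chromosome 4, 44524748 to 44710694) was marked by 1 region of intermediate openness, 5.92 kb inside the gene and overlapping the noncoding gene 5730488B01Rik. At 44704340 to 44704771 it was at 13.1, 16.3, 10.99 and 15.6 CPM in OPA1KO replicates 1 to 4, and at 14.6, 14.2, 13.5 and 13.3 CPM in WT replicates 1 to 4. The WT values fell inside the range of the OPA1KO values (log2 fold change 0.00 ± 0.18, edgeR adjusted p = 1.0). The 4 other own regions, deeper in the gene, were between 1.61 and 4.66 CPM. Of these, the region at 44564628 to 44564888 had the smallest p. It was at 7.11, 6.71, 4.29 and 4.10 CPM in OPA1KO replicates 1 to 4, and at 3.50, 2.65, 4.43 and 4.48 CPM in WT replicates 1 to 4 (0.57 ± 0.29, edgeR adjusted p = 0.795). OPA1KO replicates 1 and 2 were above all WT libraries there, and OPA1KO replicates 3 and 4 were among them.

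Ebf1 (chromosome 11, 44618100 to 45008096) held the largest number of own regions, 9, spread over its long span, and all were weak, between 2.69 and 7.04 CPM. The region 0.69 kb upstream of its start, at 44617069 to 44617409, was at 5.404, 7.25, 5.77 and 6.72 CPM in OPA1KO replicates 1 to 4, and at 5.93, 5.61, 8.44 and 5.74 CPM in WT replicates 1 to 4 (log2 fold change −0.03 ± 0.24, edgeR adjusted p = 0.995). The strongest, 275 kb into the gene at 44894834 to 44895168, was at 5.69, 7.43, 6.44 and 5.25 CPM in OPA1KO replicates 1 to 4, and at 8.51, 5.61, 7.17 and 10.2 CPM in WT replicates 1 to 4 (−0.35 ± 0.24, edgeR adjusted p = 0.863). The region with the smallest p, 6.84 kb upstream at 44610981 to 44611260, was at 4.55, 1.81, 4.16 and 5.74 CPM in OPA1KO replicates 1 to 4, and at 2.74, 1.71, 2.95 and 3.23 CPM in WT replicates 1 to 4 (0.63 ± 0.35, edgeR adjusted p = 0.821). At all 9 regions the groups overlapped.

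At the NK and cytotoxic genes, no region of the table lay within 25 kb of Ncr1 (chromosome 7, 4337715 to 4345184), and Prf1 (chromosome 10, 61297751 to 61304684) had 1 own region, at its start. The Prf1 region, at 61297561 to 61297803, covers most of the upstream part of the sequence printed above and ends 0.03 kb before the listed start. Its counts were 12, 16, 24 and 7 in OPA1KO replicates 1 to 4, and 39, 19, 20 and 24 in WT replicates 1 to 4. Scaled, it was at 1.71, 2.90, 3.22 and 1.148 CPM in OPA1KO libraries, and at 5.93, 2.96, 4.22 and 4.30 CPM in WT libraries. OPA1KO replicate 3 was above WT replicate 2, and the other OPA1KO libraries were below all WT libraries. The difference had the smallest p among own regions and did not pass the test (log2 fold change −0.95 ± 0.36, edgeR adjusted p = 0.623). The strongest region in the window, nearest to Pald1, was at 27.5 ± 3.56 CPM in OPA1KO and 26.1 ± 4.22 CPM in WT libraries.

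At the progenitor gene Gata2 (chromosome 6, 88193891 to 88207032), the inner of its 2 listed starts lay inside a weak region and the outer one had none within 1 kb. The region over the inner start, at 88198494 to 88198761, was at 4.84, 3.81, 5.77 and 2.46 CPM in OPA1KO replicates 1 to 4, and at 2.74, 4.52, 6.12 and 4.66 CPM in WT replicates 1 to 4 (log2 fold change −0.06 ± 0.31, edgeR adjusted p = 0.990). Its other own regions lay 3.89 kb and 8.86 kb upstream of the outer start, overlapping the noncoding gene Gm38708. The farther one, at 88184684 to 88185033, was at 8.39, 7.25, 8.45 and 6.23 CPM in OPA1KO replicates 1 to 4, and at 6.69, 8.73, 10.97 and 11.3 CPM in WT replicates 1 to 4 (−0.30 ± 0.22, edgeR adjusted p = 0.877).

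The smallest p of all 37 regions belonged to a region on the other side of Gata2, 31.9 kb downstream of the inner start and nearest to Dnajb8, a chaperone gene. At 88230580 to 88230873 its counts were 36, 37, 28 and 19 in OPA1KO replicates 1 to 4, and 17, 16, 10 and 11 in WT replicates 1 to 4. Scaled, it was at 5.12, 6.71, 3.75 and 3.12 CPM in OPA1KO libraries, and at 2.58, 2.49, 2.11 and 1.97 CPM in WT libraries. Each OPA1KO library was above each WT library, and the difference did not pass the test over all regions (log2 fold change 1.00 ± 0.33, edgeR adjusted p = 0.523). The own regions of Gata2 did not share this pattern, with log2 fold changes from −0.30 to 0.21.

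The erythroid control Epb42 (chromosome 2, 121017891 to 121036877) had 1 own region, over its start, and was the least open member. At 121036647 to 121036952 its counts were 40, 7, 10 and 30 in OPA1KO replicates 1 to 4, and 18, 11, 4 and 6 in WT replicates 1 to 4. Scaled, it was at 5.69, 1.27, 1.34 and 4.92 CPM in OPA1KO libraries, and at 2.74, 1.71, 0.844 and 1.08 CPM in WT libraries. OPA1KO replicates 1 and 4 were above every other library, while OPA1KO replicates 2 and 3 were among the WT libraries. The region did not pass the test (log2 fold change 1.01 ± 0.49, edgeR adjusted p = 0.770), and without OPA1KO replicate 1 or WT replicate 1 it did not pass the filter on low counts, so it was not tested.

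Some other red cell genes, picked for description after their values were seen, were also high in OPA1KO replicates 1 and 4. Own regions of Alas2, the first enzyme of haem synthesis in red cells, summed to 3.41, 1.27, 1.47 and 4.26 CPM in OPA1KO replicates 1 to 4, and to 0.760, 0.623, 2.74 and 2.15 CPM in WT replicates 1 to 4. For Alas2, as for Epb42, the 2 highest libraries were OPA1KO replicates 1 and 4.

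The same held for Hemgn, an erythroid nuclear protein gene, at 19.6, 15.4, 15.02 and 19.02 CPM in OPA1KO replicates 1 to 4 and 15.1, 10.3, 10.8 and 11.7 CPM in WT replicates 1 to 4. It did not hold for Slc4a1, which encodes the anion exchanger band 3, where OPA1KO replicate 4 was at 17.05 CPM and WT replicate 4 was above it at 17.2 CPM. For Hbb-bs, a beta globin gene whose near-identical copies make its counts uncertain, the highest libraries were OPA1KO replicate 4 at 10.7 CPM and WT replicate 4 at 7.35 CPM. Gata1 and Hba-a1 had no own region. None of these gene sums passed the test. The part of red cells or their precursors in the Epb42 values was not tested.

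**Figure D4:**
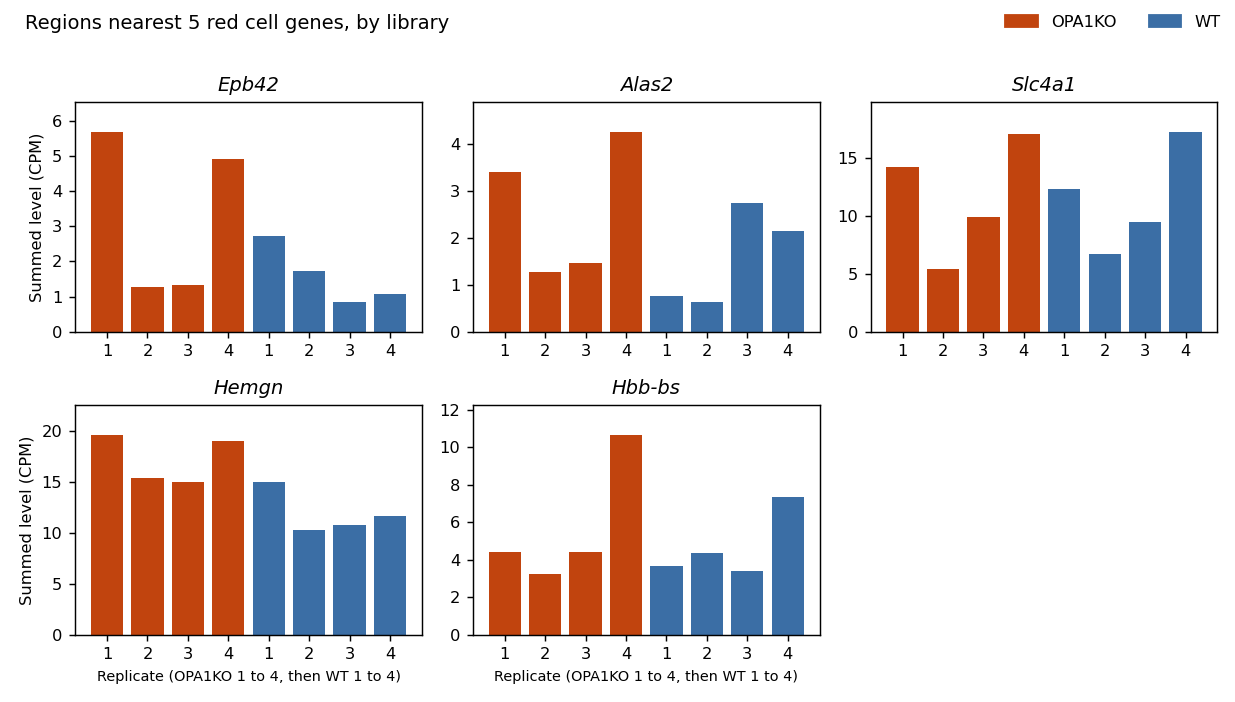
Level summed over the own regions of 5 red cell genes (CPM, bars start at 0) in each library, OPA1KO replicates 1 to 4 and then WT replicates 1 to 4. In Epb42, Alas2 and Hemgn the 2 tallest bars are OPA1KO replicates 1 and 4, with Epb42 at 5.69 and 4.92 CPM.

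Summed per gene, 0 of the 8 members with own regions passed the test, where 3 of 15276 gene sums did (0.0196%, edgeR quasi-likelihood, adjusted over all gene sums). At an unadjusted p under 0.05 there was 1 member, Prf1, against 5.64% of all gene sums; it was lower in OPA1KO, as were 3.93% of all gene sums. The Tcf7 sum was at 20.9, 21.4, 20.6 and 20.0 CPM in OPA1KO replicates 1 to 4, and at 18.9, 18.2, 15.8 and 19.4 CPM in WT replicates 1 to 4. It was the 1 member sum whose groups did not overlap, against 3.55% of all gene sums, and it did not pass the test (log2 fold change 0.19 ± 0.13, edgeR adjusted p = 0.932). Log2 fold changes of the sums were 0.28 ± 0.24 for Cd3e, −0.14 ± 0.11 for Gata3, 0.13 ± 0.13 for Pax5, 0.09 ± 0.12 for Ebf1 and −0.06 ± 0.16 for Gata2. The highest library exceeded the lowest 1.35-fold for Tcf7, 1.40-fold for Pax5, 1.43-fold for Gata3, 1.52-fold for Ebf1 and 1.61-fold for Gata2. It did so 2.84-fold for Cd3e, 5.17-fold for Prf1 and 6.74-fold for Epb42, the 3 genes with the fewest counts.

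**Figure D5:**
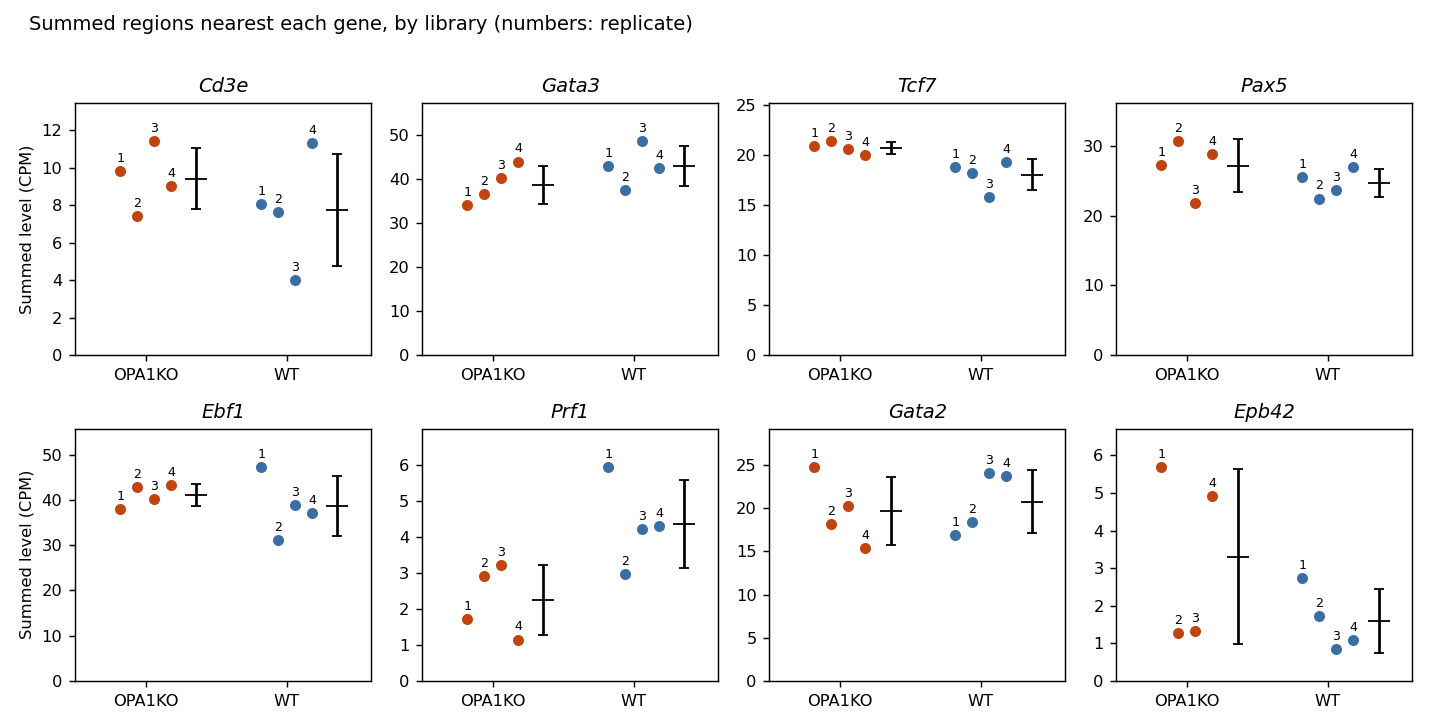
Level summed over the own regions of each member (CPM, axes start at 0) in the 4 OPA1KO and 4 WT libraries, with replicate numbers over the points and the group mean ± SD beside them. The groups overlap in all panels but Tcf7, and OPA1KO replicates 1 and 4 stand above the rest for Epb42.

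Lists of further lineage genes, which leave out the members, were counted in the same way. Of 20 T cell genes 17 had an own region, and their gene sums were positive for 10 and negative for 7, with a median log2 fold change of 0.04. Of 18 B cell genes 17 had one (10 positive, 7 negative, median 0.06), of 16 NK and cytotoxic genes 13 (8 and 5, median 0.05), and of 21 erythroid, mast cell and progenitor genes 17 (12 and 5, median 0.04). The 20 cDC1 genes had 19, with 15 positive and 4 negative and a median of 0.07. The 12 macrophage genes, another cell type that a spleen sort could hold, all had one, with 1 positive and 11 negative and a median of −0.33. Over all gene sums 42.3% were positive and the median was −0.02. In these 6 lists, 0 gene sums passed the test in either direction.

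The lists also differed in level. The median summed own level of a gene was 81.2 CPM for cDC1 genes, against 21.4 CPM for T cell, 13.3 CPM for B cell, 13.8 CPM for NK and cytotoxic, 14.6 CPM for erythroid and progenitor and 14.1 CPM for macrophage genes, with 19.8 CPM for the members and 45.1 CPM over all genes. Sums grow with the number of own regions and are not per length. Among defining cDC1 genes, Irf8 was at 105 CPM, Batf3 at 81.2 CPM, Wdfy4 at 147 CPM and Clec9a at 18.9 CPM, and Xcr1 had no own region. The control lists also held open genes. Cd6, a T cell surface receptor gene, was at 59.2 CPM. Bach2 and Cxcr5, a repressor and a chemokine receptor of B cells, were at 292 and 125 CPM. Klrb1c and Fasl were at 96.6 and 67.5 CPM, and Nfe2 and Kit at 118 and 68.3 CPM. The most open macrophage genes, Adgre1 and Cd68, were at 109.8 and 95.3 CPM, and the most open cDC1 gene, Cadm1, at 177 CPM.

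Within the lists, the smallest p among T cell genes belonged to Trat1, an adaptor of the T cell receptor. Its sum was at 37.0, 41.5, 43.04 and 45.4 CPM in OPA1KO replicates 1 to 4, and at 30.9, 30.1, 28.5 and 31.03 CPM in WT replicates 1 to 4. The groups did not overlap, and edgeR did not call it (log2 fold change 0.47 ± 0.10, edgeR adjusted p = 0.243), while DESeq2 did (0.49, DESeq2 adjusted p = 0.0279). The B cell inhibitory receptor gene Cd22 was at 11.1 ± 2.53 CPM in OPA1KO and 7.37 ± 1.17 CPM in WT libraries (0.59 ± 0.21, edgeR adjusted p = 0.704), and Eomes, a T-box factor of NK cells, at 10.8 ± 1.74 CPM in OPA1KO and 8.03 ± 1.2497 CPM in WT libraries (0.43 ± 0.19, edgeR adjusted p = 0.854). Hemgn had the smallest p of the erythroid list (0.53 ± 0.17, edgeR adjusted p = 0.638), Cd8a of the cDC1 list (0.44 ± 0.16, edgeR adjusted p = 0.728) and Vcam1 of the macrophage list (−0.68 ± 0.19, edgeR adjusted p = 0.526).

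List totals did not set any library far apart. The T cell regions summed to 439 to 488 CPM in OPA1KO and 418 to 477 CPM in WT libraries, the B cell regions to 652 to 734 CPM in OPA1KO and 641 to 743 CPM in WT libraries, and the NK and cytotoxic regions to 330.2 to 358 CPM in OPA1KO and 310.3 to 349 CPM in WT libraries. The erythroid regions summed to 469.8 to 544 CPM in OPA1KO libraries, with replicate 1 highest, and 474 to 509 CPM in WT libraries. The macrophage regions summed to 378 to 419 CPM in OPA1KO and 403 to 443 CPM in WT libraries. Their group means were 391 CPM in OPA1KO and 425 CPM in WT libraries, with overlapping groups. Within this list, the sums of C1qb and Vcam1 did not overlap between the groups, against 3.55% of all gene sums. C1qb was at 4.19 ± 0.769 CPM in OPA1KO and 7.68 ± 1.72 CPM in WT libraries (edgeR adjusted p = 0.552). Vcam1 was at 9.38 ± 1.34 CPM in OPA1KO and 15.1 ± 3.56 CPM in WT libraries (edgeR adjusted p = 0.526). The other macrophage sums overlapped. For each of these lists the highest library was at most 1.17-fold above the lowest, against 1.201-fold for the members and 1.08-fold for the cDC1 regions. The genes whose summed level followed that of the 27 own regions most closely over the 8 libraries were Plcl1, Synpo2 and Fnip2 (Pearson's r = 0.94, 0.93 and 0.93), the top of 7547 genes compared, all scaled with the same library sizes.

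Total counts per library ranged from 4660826 to 7590578, and TMM factors from 0.947 to 1.03. The own regions rested on 2 to 268 counts per library, with a median of 28.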

How the data were processed

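The deposited values are counts: per the file headers and values, whole numbers per region and library whose totals differ, used as deposited. The tools named in the submitters' processing notes are bedtools, MACS2 2.1.0.20150603, SAMtools, Picard 1.65 and cutadapt 1.9, and the builds mm10 and GRCm38; the tools' roles, any shift of read ends, and how the shared region set was made are not given in the sources used here. A gene without a region has no count here, not a count of 0. Columns were matched to libraries by library name.

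Regions were filtered with filterByExpr (59247 kept, 659 removed), scaled with TMM and tested with edgeR 4.0.16 in R 4.3.3 (glmQLFit with robust estimation, glmQLFTest, OPA1KO over WT, 4 libraries each, no covariates). The Benjamini-Hochberg adjustment ran over every tested region, with calls at an adjusted p under 0.05. Standard errors are the fold change divided by the root of the F statistic. Counts were also summed per protein-coding gene over its own regions, using the TMM factors of the region table, and tested likewise; overlapping genes share regions. Genes, strands and starts came from RefSeq tables on GRCm38.p6, in which 17491 of 21883 protein-coding models had a start sequence. Whether region starts count from 0 or 1 is not given.

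Alternatives were DESeq2 1.42.0, limma-voom (limma 3.58.1), other scalings, filters and windows, a replicate block, and leaving out each library. The members and lists were chosen with earlier results of these data known. Values in every library were given for regions within 1 kb of a start, the most open own region and the region with the smallest p of each window; of each list, the 2 genes with the highest sums and the 1 with the smallest p were named, except that 1 T cell gene is not reported here. Cd3d, Cd3g, the neighbouring regions and further red cell and cDC1 genes were named after their values were seen. The procedure was tested on simulated data with changes placed at regions drawn from all regions. At an adjusted p under 0.05 it recovered 9.09% of 1.5-fold, 61.5% of 2-fold and 92.1% of 3-fold region changes. For gene sums it recovered 61.2%, 92.4% and 98.5%. Recovery at the members themselves was not measured. Their own regions were weaker, at a median of 4.29 CPM against 6.66 CPM over all regions, and their sums lay below the median gene. Small changes at single regions, and larger ones at weak regions or sums, could therefore go uncalled.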

Additional observations from a re-analysis of the deposited data

Results flagged for a closer look

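Groups of 4 libraries were screened for a library whose gap to the nearest other was past Dixon's critical value as a share of the group's range, and 2 of 54 groups were past it, where chance flags about 1 in 20. At the Tcf7 start, OPA1KO replicate 2 was at 7.79 CPM, above the other OPA1KO libraries at 6.54 to 6.57 CPM. At the region upstream of Ebf1, WT replicate 3 was at 8.44 CPM, above the other WT libraries at 5.61 to 5.93 CPM.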

How the results depend on the processing

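The 37 window regions and the 8 member sums gave 0 calls under every alternative run, and the log2 fold changes of the 14 named regions and 8 sums kept their direction for 17 of 22, with a smallest adjusted p of 0.302 over 370 alternative values. The 5 that turned were near 0. The Pax5 region at 44704340 was at −0.029 with limma-voom and −0.0025 with the replicate block, and −0.074 to 0.10 with 1 library left out. The Ebf1 region at 44617069 gave −0.10 to 0.13, the Gata2 region at 88198494 −0.26 to 0.12, the Ebf1 sum −0.0058 to 0.21 and the Gata2 sum −0.20 to 0.037 with 1 library left out. The Gata2 sum was at 0.11 with a 50 kb window and 0.089 over all regions in the 25 kb window, which adds the Dnajb8 region. Summing all window regions, neighbouring ones included, also brought the sums of Prf1 to −0.01, Epb42 to 0.10, Tcf7 to 0.0040 and Cd3e to 0.10. Calls over all regions numbered 38 with DESeq2, 4 with limma-voom, 1 with the replicate block and 1 to 68 with 1 library left out (68 without WT replicate 2, 22 without OPA1KO replicate 4, 4 without OPA1KO replicate 2, and 1 without OPA1KO replicate 1, OPA1KO replicate 3, WT replicate 3 or WT replicate 4). Over gene sums they numbered 5 with loess offsets, 12 with DESeq2, 2 with the replicate block and 2 to 40 with 1 library left out (40 without WT replicate 2, 5 without OPA1KO replicate 4). In the lists, 1 gene was called with DESeq2 (Trat1), and 0 to 1 with 1 library left out (Marco, without WT replicate 2). The cause was not tested. The summed own level, 160 CPM over 8 libraries, was 149 CPM with a 10 kb window and 181 CPM with a 50 kb window, which hold fewer and more regions. Replicate numbers did not pair the libraries (correlation of same-numbered deviations −0.13 to −0.01), and with the block the window regions, member sums and lists still gave 0 calls. The Epb42 region and sum were not tested with a minimum of 2 CPM in 4 libraries. Depth limits the weak regions, such as Epb42 with as few as 4 counts.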
